A study of Mus musculus with 7 samples.

Results

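The 10 genes described here encode the subunits of NF-kB and proteins that hold it in check or serve as its cofactor. Their RNA was measured in macrophages sorted from the regenerating sciatic nerve. They comprise the 5 subunit genes Nfkb1, Nfkb2, Rel, Rela and Relb, the inhibitor genes Nfkbia, Nfkbib and Nfkbie, the nuclear family member Nfkbiz, and Tnfaip3. They were chosen by gene symbol. All 10 were found among the 23361 genes quantified, and all 10 passed the filter on low fragment counts, as did 12858 genes in all.

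The mice were BALB/cJ, a wild-type inbred strain, and their sciatic nerve was cut and repaired at once with a conduit. The regenerative bridge that formed in the conduit was taken 5, 14 or 28 days later and digested for 1 h with collagenase and hyaluronidase, and macrophages (Lin-F4/80+CD14+CD11b+CD16/32+) were isolated by flow cytometry. There were 3 RNASeq libraries at day 5, 2 at day 14 and 2 at day 28. There were no uninjured or untreated libraries, so each day can be set only against another day, and the age of the mice and the number of mice behind a library are not given in the sources used here.

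NF-kB proteins act as dimers that bind kappa B sites in DNA. In the classical pathway, Toll-like, interleukin 1 and TNF receptors activate the IKK kinase complex, which marks the IkB inhibitors for destruction and so frees dimers such as p50 (from Nfkb1) with RelA or c-Rel to enter the nucleus. In the alternative pathway, the kinase NIK triggers the processing of p100, the Nfkb2 product, to p52, which pairs with RelB. Several of the genes that NF-kB switches on encode its own subunits and inhibitors, which makes the pathway a feedback loop, and in macrophages it is best known for driving inflammatory cytokine genes.

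Promoter sequences are shown first, since the proteins these genes encode bind kappa B sites. RefSeq promoters (build GRCm38.p6, from 250 bases before to 50 after a start site) were matched for 7 of the 10 genes, with 10 promoters among them. Nfkb1, Relb and Nfkbiz had no entry in the promoter table. Both strands were searched for the kappa B consensus, a motif of 10 bases, and a palindromic stretch can match it on both strands at overlapping positions. At least 1 match lay in the promoters of 5 of the 7 genes (71.4%). The share was 9.55% of all 27025 genes with a promoter entry and 12.3% of the 9554 tested ones. Of single promoters, 70.0% of the 10 held a match, against 8.46% of all 32851. In lists described below, a match was found for 46.7% of 15 other regulators and 43.3% of 30 target genes. It was found for 16.7% of 12 genes of the kinase list and 16.7% of 24 receptors and adaptors. Nfkb2, Nfkbia, Nfkbie and Tnfaip3 are shown as genes with a match and Rela as one without, each read along the gene's own strand with the matches in capitals. They lie at chr19:46304487-46304786 (Nfkb2, plus strand, the first of its 3 promoters), chr12:55492598-55492897 (Nfkbia, minus strand), chr17:45555450-45555749 (Nfkbie, plus strand), chr10:19015361-19015660 (Tnfaip3, minus strand, the first of its 2) and chr19:5637291-5637590 (Rela, plus strand).
Nfkb2: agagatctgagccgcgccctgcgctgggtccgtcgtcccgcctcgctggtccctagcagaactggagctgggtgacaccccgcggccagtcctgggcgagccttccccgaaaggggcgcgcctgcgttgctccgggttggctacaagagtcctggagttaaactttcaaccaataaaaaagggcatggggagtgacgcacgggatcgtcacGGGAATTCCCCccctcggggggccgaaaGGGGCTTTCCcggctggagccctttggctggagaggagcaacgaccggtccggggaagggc
Nfkbia: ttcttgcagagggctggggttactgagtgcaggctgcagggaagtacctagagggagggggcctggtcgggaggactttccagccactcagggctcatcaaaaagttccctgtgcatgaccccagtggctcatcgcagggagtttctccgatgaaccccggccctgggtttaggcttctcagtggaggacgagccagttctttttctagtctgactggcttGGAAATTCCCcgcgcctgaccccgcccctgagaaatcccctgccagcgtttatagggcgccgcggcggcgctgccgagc
Nfkbie: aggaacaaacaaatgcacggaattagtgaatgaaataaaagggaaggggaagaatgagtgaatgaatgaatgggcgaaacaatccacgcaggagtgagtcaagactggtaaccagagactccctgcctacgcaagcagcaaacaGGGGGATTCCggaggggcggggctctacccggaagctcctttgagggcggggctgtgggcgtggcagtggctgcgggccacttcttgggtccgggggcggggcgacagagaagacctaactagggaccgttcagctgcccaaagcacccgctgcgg
Tnfaip3: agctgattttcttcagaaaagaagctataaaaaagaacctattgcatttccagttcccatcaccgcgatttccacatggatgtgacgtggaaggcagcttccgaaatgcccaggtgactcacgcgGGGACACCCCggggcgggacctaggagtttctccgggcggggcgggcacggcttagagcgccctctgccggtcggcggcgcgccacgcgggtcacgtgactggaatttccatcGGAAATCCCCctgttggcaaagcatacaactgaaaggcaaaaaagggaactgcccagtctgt
Rela: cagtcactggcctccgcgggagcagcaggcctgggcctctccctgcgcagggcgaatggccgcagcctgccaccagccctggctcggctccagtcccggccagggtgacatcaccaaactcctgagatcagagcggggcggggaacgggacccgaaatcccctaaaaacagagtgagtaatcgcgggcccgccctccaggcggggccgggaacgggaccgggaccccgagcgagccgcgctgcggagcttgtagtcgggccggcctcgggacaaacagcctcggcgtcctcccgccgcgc

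Counted from the start site to the first base of the match, the Nfkbia match began at -29 and the Nfkbie match at -106. The Tnfaip3 matches began at -125 and -12. The first Nfkb2 promoter held overlapping matches at -39 and -38 and another at -11. The Rel promoter, not shown, held overlapping matches at -92 and -91, and the Rela and Nfkbib windows held none. A match describes the letters only, since binding was not measured in these macrophages.

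Library depth was 18027190 to 35247116 fragments assigned to genes, and the least abundant value among the 10 genes was 1610 fragments (Rel, day 14 replicate 2), against a detection floor of 3 fragments. Counting error was therefore small beside the spread between libraries. The 2 libraries of day 14 and the 2 of day 28 differed from each other more than the 3 of day 5 did. The chi-square per degree of freedom was 62.5 and 47.4 against 15.6 to 21.9. The fit took 1 estimate of a gene's spread from all 7 libraries, so the wider spread of the later days is not modelled apart. Levels are given as FPKM, the authors' fragments scaled for transcript length and library size, which can be compared between genes. In bulk RNA, fewer cells that express a gene and less RNA of it per cell cannot be told apart. All 7 macrophage markers were present in every library, and their sum of 13300.0 to 20600.0 FPKM was mostly Lyz2. Among them, genes of the sort markers F4/80 (Emr1) and CD11b (Itgam) and Cd68 were lower at day 28 than at day 5 without overlap. Emr1 was at 365 to 470.0 FPKM at day 5 and 195 to 209 at day 28, Itgam at 341 to 397 and 235 to 289, and Cd68 at 1220.0 to 1290.0 and 916 to 1000.0. Csf1r was at 406 to 434 and 423 to 470.0 FPKM, and Fcgr3 was higher in both day 28 libraries than in all day 5 libraries.

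All 10 genes were expressed in every library, and 3 that encode inhibitors or cofactors of NF-kB stood above all the subunit genes. Nfkbia, which encodes IkBα, was the most abundant of the 10 in all 7 libraries, followed in each library by Tnfaip3, which encodes the ubiquitin-editing enzyme A20 that damps signalling to IKK, and then by Nfkbiz, which encodes the nuclear protein IkBζ. At day 5 the mean level was 1190.0 ± 54.9 FPKM (SD, n = 3) for Nfkbia, 326.0 ± 44.4 for Tnfaip3 and 210.5 ± 6.08 for Nfkbiz. The ranges of these neighbours did not overlap on any day. Below them, the order of Nfkbie, Nfkb2 and Nfkb1 varied between libraries and their ranges overlapped at days 5 and 14. Rela and Relb, neighbours in the order, overlapped at every day. Rel was lowest in 6 of the 7 libraries and next to lowest in day 28 replicate 2, where Relb was lower.

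**Figure D1:**
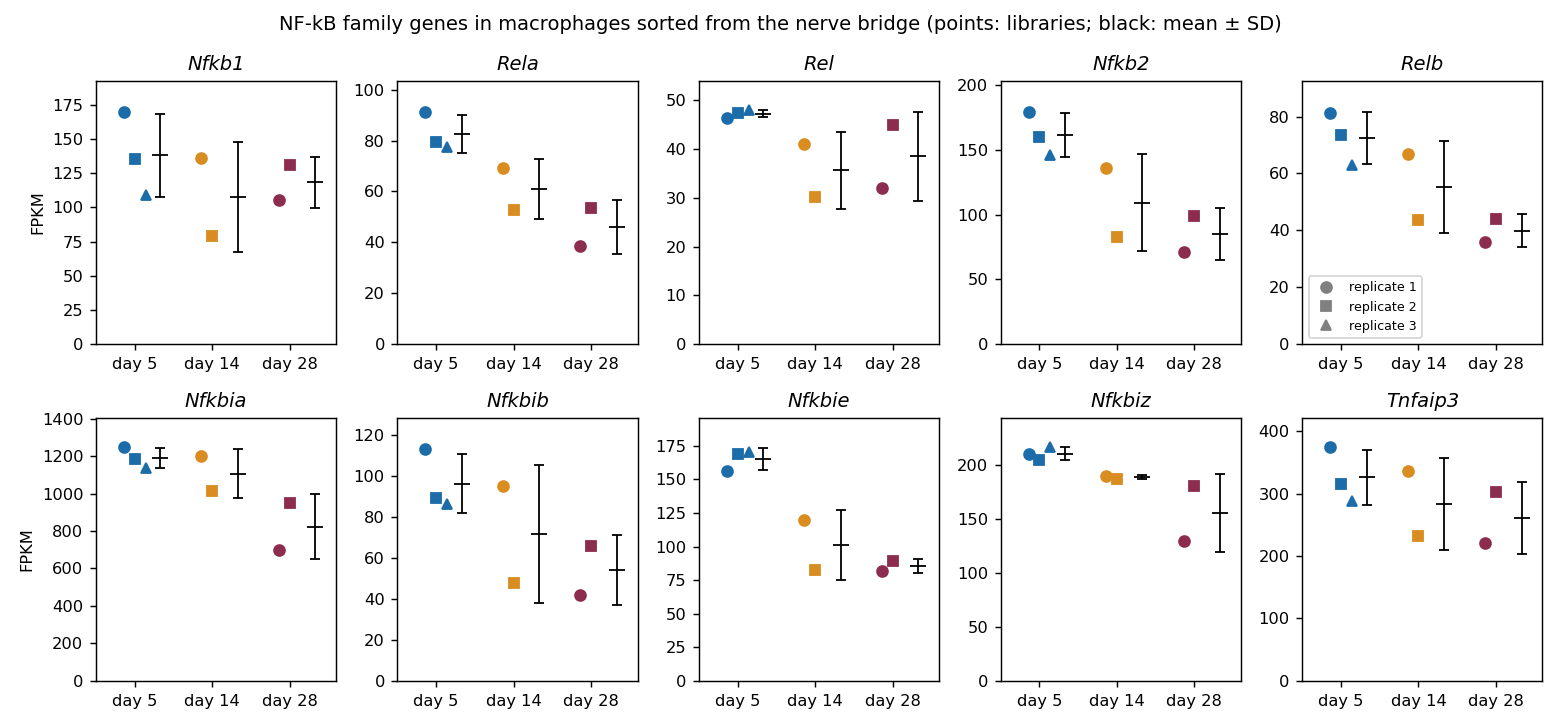
FPKM of the 10 genes (y axes, each from 0) at days 5, 14 and 28 after nerve repair (x axes). Coloured points are libraries, shaped by replicate number, and the black bar and whiskers are the mean ± SD of a day (n = 3, 2 and 2). The day 28 points of Rela, Nfkb2, Relb and Nfkbie lie below all day 5 points, whereas those of Nfkb1 and Tnfaip3 overlap with day 5.

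The main comparison asked how the genes changed from the first time point, day 5, to the last, day 28. The fold changes of all 10 genes were below 0, and 4 of them passed the test as lower at day 28: Rela, Nfkb2 and Relb among the subunits, and Nfkbie among the inhibitors. In the same comparison 15.2% of the 12858 genes tested were called, 7.51% as lower and 7.74% as higher, and 46.8% had a log2 fold change below 0. Unadjusted p was under 0.05 in 7 of the 10 and in 31.5% of all genes tested. The median log2 fold change was -0.67 over the 10 genes and 0.03 over all genes tested. None of the 4 reached the 2-fold difference of the stringent criteria, which 3.52% of the genes tested met. All changes in this and the following paragraphs are log2 fold changes of scaled fragment counts, later over earlier day, tested with the quasi-likelihood method of edgeR and adjusted by Benjamini-Hochberg over all genes tested.

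Rela (chr19:5637483-5648130, plus strand, GRCm38) encodes the main transactivating subunit of the classical pathway. Its level was 91.2, 79.4 and 77.4 FPKM in day 5 replicates 1 to 3, 69.3 and 52.5 in the 2 day 14 libraries, and 38.6 and 53.7 in the 2 day 28 libraries. Every later library lay below every day 5 library, and days 14 and 28 overlapped. Rela fell by 0.83 on the log2 scale from day 5 to day 28 (SE 0.175, adjusted p = 0.0156), to 0.562 of its day 5 level.

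Nfkb2 (chr19:46304320-46312385, plus strand) and Relb (chr7:19606217-19629438, minus strand) encode the partners of the alternative pathway. Nfkb2 was at 178.9, 159.7 and 146 FPKM at day 5, at 136 and 82.9 at day 14 and at 70.9 and 98.9 at day 28. Day 14 replicate 1 stood close under the day 5 libraries, while day 14 replicate 2 was within the day 28 range. Nfkb2 fell by 0.92 on the log2 scale from day 5 to day 28 (SE 0.222, adjusted p = 0.0250), to 0.530 of its day 5 level. Relb was at 81.3, 73.4 and 63.0 FPKM at day 5, at 66.7 and 43.8 at day 14 and at 35.8 and 44.0 at day 28. Here day 14 overlapped with both other days, and day 28 lay below day 5 without overlap. Relb fell by 0.85 (SE 0.191, adjusted p = 0.0195), to 0.554 of its day 5 level.

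The other subunit genes did not pass the test. Nfkb1 (chr3:135584655-135691547, minus strand) gives p105 and, after processing, p50, a subunit that binds DNA but has no transactivation domain. It was at 169.8, 135 and 109 FPKM at day 5, 136 and 79.4 at day 14, and 105 and 131 at day 28, so all 3 days overlapped. Its log2 fold change from day 5 to day 28 was -0.21 (SE 0.244, adjusted p = 0.597). Rel (chr11:23736847-23770970, minus strand) encodes c-Rel, the subunit most tied to blood cells. Its day 5 libraries were close together at 46.4, 47.5 and 47.9 FPKM, and the later ones were spread, at 41.1 and 30.1 at day 14 and 32.1 and 45.0 at day 28. The day 28 libraries lay below day 5 without overlap, by a narrow gap for replicate 2, with a difference of -0.28 on the log2 scale (SE 0.168, adjusted p = 0.282).

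**Figure D2:**
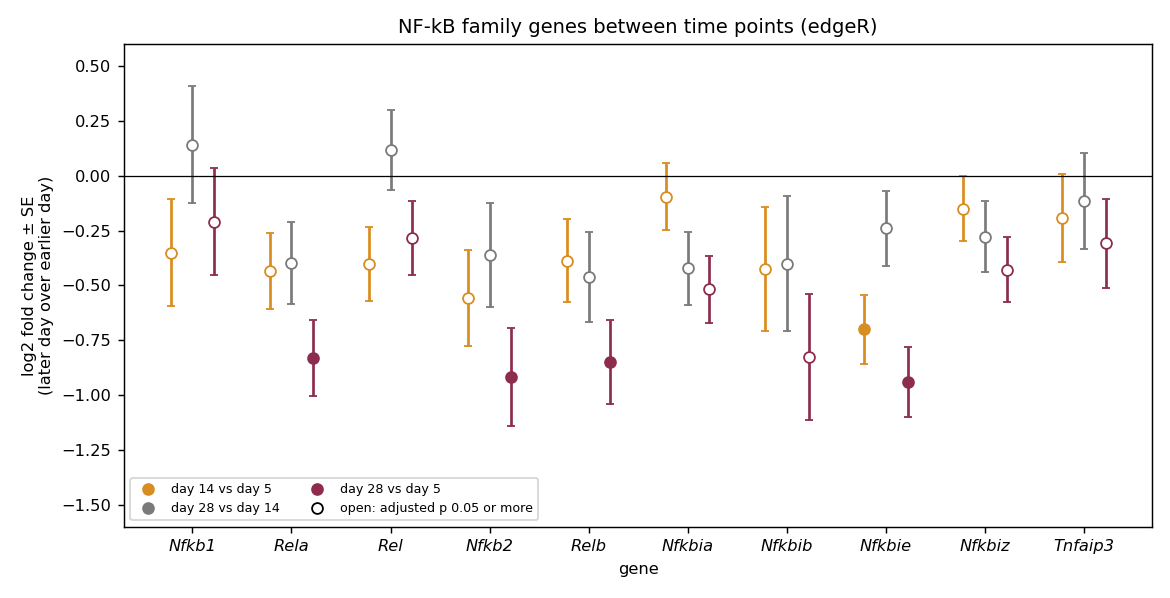
Log2 fold change ± SE of the 10 genes (y axis, later over earlier day, edgeR) in the 3 comparisons, coloured by comparison. Filled points have an adjusted p under 0.05: Nfkbie from day 5 to day 14, and Rela, Nfkb2, Relb and Nfkbie from day 5 to day 28.

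Among the inhibitors, Nfkbie (chr17:45555703-45563169, plus strand), which encodes IkBε, had the lowest adjusted p of the 10 genes. It was at 156, 169 and 170.4 FPKM at day 5, 119.7 and 82.5 at day 14 and 81.6 and 89.1 at day 28. Both later days lay wholly below day 5, and day 14 replicate 2 was already in the day 28 range. Nfkbie fell by 0.94 on the log2 scale from day 5 to day 28 (SE 0.160, adjusted p = 0.00665), to 0.521 of its day 5 level.

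Nfkbia (chr12:55489410-55492647, minus strand), the inhibitor that NF-kB rapidly re-induces, missed the threshold in this comparison. Its level was 1247, 1186 and 1137 FPKM at day 5, 1199 and 1014 at day 14 and 699.5 and 948 at day 28. Both day 28 libraries were below the other 5, and days 5 and 14 overlapped. Its log2 fold change from day 5 to day 28 was -0.52 (SE 0.154, adjusted p = 0.0512). The alternatives went both ways. It passed with DESeq2 (adjusted p = 0.00819) and with no expression filter (0.0193). It missed with limma (adjusted p = 0.0581 and 0.0586) and, with edgeR, with replicate number as a block (0.126).

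Nfkbib (chr7:28758251-28767512, minus strand), which encodes IkBβ, had as large a fold change as Rela but a wider spread, with -0.83 on the log2 scale (SE 0.288, adjusted p = 0.0830). It too passed with DESeq2 (adjusted p = 0.0121) and with no expression filter (0.00732) and missed with limma (0.0951 and 0.0916). Its level was 113, 89.5 and 86.5 FPKM at day 5, 95.2 and 47.6 at day 14 and 41.8 and 66.0 at day 28. The day 14 libraries stood farther apart than those of any other gene here relative to their mean, 1 within the day 5 range and the other within the day 28 range. Nfkbiz (chr16:55811375-55838899, minus strand), a cofactor that helps NF-kB switch on secondary response genes, was at 210.3, 205 and 217 FPKM at day 5, 190.2 and 187 at day 14 and 129.9 and 181 at day 28. Its libraries fell into separate ranges by day, yet its fold change of -0.43 did not pass (SE 0.149, adjusted p = 0.0837). Tnfaip3 (chr10:19000910-19015657, minus strand) was at 375, 315 and 288 FPKM at day 5, 336 and 231 at day 14 and 221 and 302 at day 28. All its days overlapped, with a log2 fold change of -0.31 from day 5 to day 28 (SE 0.201, adjusted p = 0.328).

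In 8 of the 10 genes the day 28 libraries lay below the day 5 libraries without overlap, the exceptions being Nfkb1 and Tnfaip3, and 25.6% of all genes tested did so. The calls rested on few libraries. Day 28 replicate 1 was the deepest library, had the lowest share of fragments in the ribosomal RNA gene Rn45s (0.863%, against 1.85% to 3.12% in the other 6) and was the lowest of all 7 in 8 of the 10 genes. Without it no member passed, with adjusted p of 0.0710 for Nfkbie, 0.119 for Rela, 0.152 for Relb and 0.184 for Nfkb2, and the share of all genes called was 3.40%. Nfkbie alone passed without day 5 replicate 1 (6.42% of all genes called), Nfkbie and Rela without day 5 replicate 2 (7.17%), and Nfkbie, Rela and Relb without day 5 replicate 3 (7.57%). Without day 28 replicate 2 (7.58%), Relb missed (adjusted p = 0.0543), while Nfkbia (0.0347) and Nfkbiz (0.0305) passed. The log2 fold change from day 5 to day 28 was below 0 for each of the 10 genes in every alternative fit, 160 of 160 values, from fits that share libraries.

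**Figure D3:**
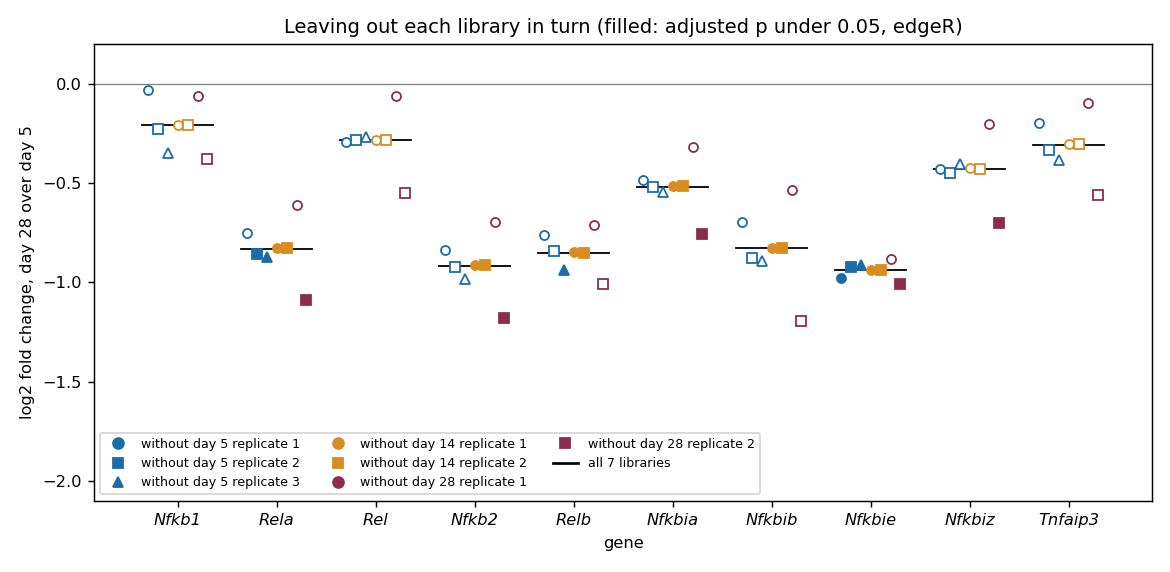
Log2 fold change from day 5 to day 28 (y axis, edgeR) of the 10 genes with each library left out in turn. The horizontal line of a gene is its value with all 7 libraries and filled symbols have an adjusted p under 0.05. Symbols without day 28 replicate 1 lie nearest to 0 for most genes and are all open, and all symbols lie below 0.

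Between days 5 and 14, all 10 fold changes were again below 0, and only Nfkbie passed the test. Of all genes tested 4.78% were called, 1.94% as lower and 2.84% as higher, and 1.17% met the stringent criteria, which no member did. Nfkbie fell by 0.70 on the log2 scale (SE 0.159, adjusted p = 0.0415). The other log2 fold changes ran from -0.56 for Nfkb2 (adjusted p = 0.164) to -0.10 for Nfkbia (adjusted p = 0.743). The median was -0.39 over the 10 genes and 0.03 over all genes tested, of which 47.1% lay below 0. Unadjusted p was under 0.05 in 4 members and in 24.0% of all genes. The day 14 libraries lay wholly below day 5 in 5 members, Rela, Rel, Nfkb2, Nfkbie and Nfkbiz, and in 21.4% of all genes. This comparison shares the day 5 libraries with the one above, so their fold changes are not independent.

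The count of calls changed with single libraries. Without day 14 replicate 1, 7 of the 10 passed as lower: Nfkb1, Nfkb2, Rel, Rela, Relb, Nfkbib and Nfkbie, with adjusted p from 0.00153 for Nfkbie to 0.0483 for Rela, while 1728 of the 13329 genes then tested were called. Leaving out any of the other 6 libraries left no member called, with an adjusted p of 0.0657 to 0.139 for Nfkbie. Without day 5 replicates 1, 2 and 3 in turn, the calls over all genes fell from 614 to 63, 106 and 52. In a comparison with 1 library on a day, that library is assumed to vary as much as the other days do.

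From day 14 to day 28 no member passed the test with edgeR, and none with DESeq2. Unadjusted p was under 0.05 in 2 of the 10 and in 12.2% of all genes tested, of which 0.0622% were called, 0.0311% as lower and 0.0311% as higher, and 0.0467% met the stringent criteria. The fold changes of 8 members lay below 0, as did 48.8% of all. Relb had the largest at -0.46 (SE 0.205, adjusted p = 0.406), and those of Nfkb1 and Rel were 0.14 (SE 0.266) and 0.12 (SE 0.183). Only Nfkbia and Nfkbiz had day 28 libraries wholly below day 14, as did 19.7% of all genes tested. Without day 14 replicate 2, Relb passed as lower (log2 fold change -0.73, adjusted p = 0.0385), and calls over all genes went from 8 to 629 of 13377.

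Ratios within a library do not depend on library scaling and show which genes moved relative to each other. They are given as a description. The summed FPKM of the cytoplasmic inhibitors Nfkbia, Nfkbib and Nfkbie was 2.67, 2.92 and 3.15 times that of the 5 subunit genes at day 5, 3.15 and 3.96 times at day 14 and 2.91 and 2.96 times at day 28. The summed inhibitor and subunit transcripts thus kept a similar proportion at days 5 and 28, with day 14 replicate 2 highest. Most of the inhibitor sum was Nfkbia. In a ratio that was not planned, Nfkbie stood at 0.125, 0.143 and 0.150 of Nfkbia at day 5. It stood at 0.0998 and 0.0813 at day 14 and at 0.117 and 0.0939 at day 28.

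The make-up of the subunit transcripts at day 28 differed from that at day 5, again as a description of the same FPKM values. Rel stood at 0.509, 0.598 and 0.619 of the level of Rela at day 5, at 0.593 and 0.573 at day 14 and at 0.833 and 0.837 at day 28. Both day 28 values lay above the other 5. Nfkb2 and Relb together stood at 0.846, 0.889 and 0.890 of the sum of Nfkb1, Rela and Rel at day 5, at 0.822 and 0.781 at day 14 and at 0.606 and 0.622 at day 28, with no overlap between days. Of the summed FPKM of the 5 subunit genes, Nfkb1 made up 24.6% to 29.9% at day 5, 27.5% to 30.3% at day 14 and 35.2% to 37.3% at day 28, whereas Nfkb2 made up 31.5% to 32.9%, 28.7% to 30.3% and 25.1% to 26.5%. Nfkb2 was thus the most abundant subunit transcript in all 3 day 5 libraries and Nfkb1 in both day 28 libraries.

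**Figure D4:**
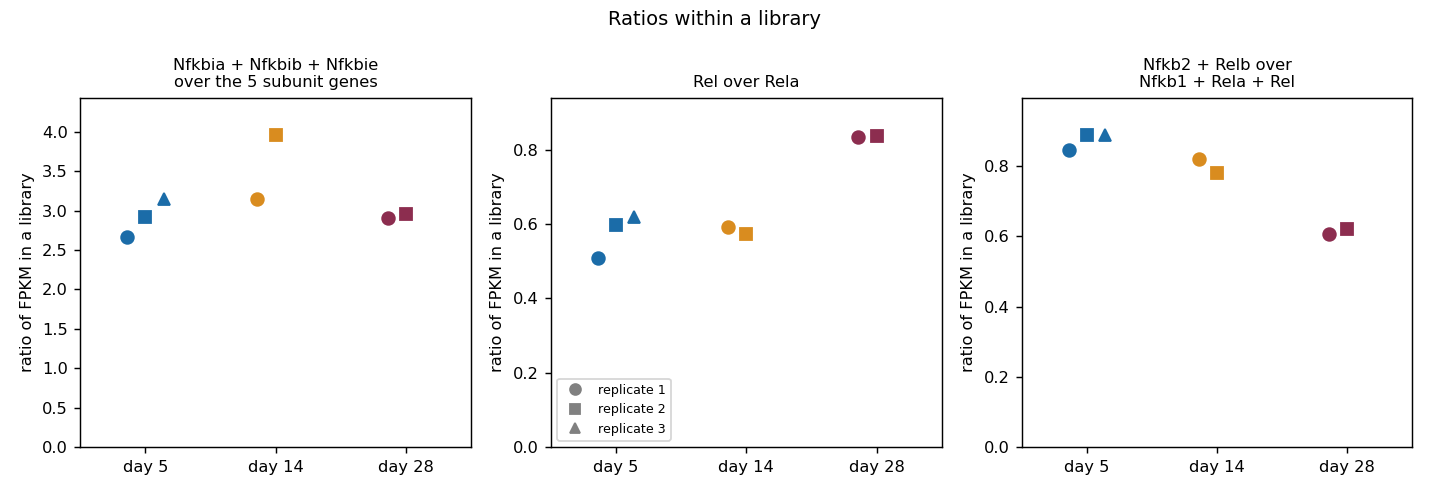
Ratios of FPKM within each library (y axes, from 0) at days 5, 14 and 28 (x axes), points shaped by replicate number. The inhibitor to subunit ratio at day 28 lies within the day 5 range, the ratio of Rel to Rela is higher in both day 28 libraries than in the other 5, and the ratio of Nfkb2 plus Relb to Nfkb1 plus Rela plus Rel is lowest at day 28.

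The levels of the 10 genes were positively correlated over the libraries, though weakly for some pairs with Nfkb1, such as Nfkbia (r = 0.462) and Nfkbie (0.548). The share of positive correlations among pairs of other genes was not computed, so these values are not shown to be particular to the family. All 45 pairs had a Pearson correlation of log2 library-scaled counts above 0 over the 7 libraries, with a median of 0.840 and a range from 0.309 (Nfkb1 with Nfkbiz) to 0.983 (Nfkb2 with Relb). Both genes of a pair were read from the same 7 libraries, which fall into 3 days and differ in depth, so these values are a description and carry no p. Over the same 7 libraries and 7556 genes whose mean reached 5 FPKM, those with the most similar pattern were Por for Nfkb2 (r = 0.998), Arap1 for Relb (0.998), Tmem171 for Rela (0.998) and Gab1 for Nfkbie (0.991). They were Snx8 for Nfkbib (0.993), Parp8 for Tnfaip3 (0.990), Optn for Nfkb1 (0.989), Midn for Nfkbia (0.989), Clk3 for Rel (0.988) and Rrad for Nfkbiz (0.985). Such values are common with so few libraries: r was over 0.9 with 616 genes for Nfkb2 and with 69 for Nfkb1.

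Genes upstream and downstream of NF-kB were counted in 4 lists that exclude the 10 members. The first list held 16 genes of IKK and the kinases that feed it, with partners that are not kinases, such as Ikbkg. Of the 16 genes, 1 was called higher and 2 lower from day 5 to day 28 (18.8% called, near the 15.2% of all genes). The median log2 fold change was -0.16. Ikbke, an IKK-related kinase that is itself an NF-kB target, fell by 1.15 (SE 0.153, adjusted p = 0.00253), from 113.5 ± 14.6 FPKM (SD, n = 3) to 50.6 ± 0.256 (n = 2). Ripk1, a scaffold kinase of TNF receptor signalling, fell by 0.55 (adjusted p = 0.0211). Ikbkg, the regulatory subunit of IKK, rose by 0.49 (adjusted p = 0.0244). Map3k14, which encodes NIK, passed narrowly as higher from day 5 to day 14 (0.68, adjusted p = 0.0491), a call that alternative scalings of the libraries did not keep. From day 5 to day 28 Map3k14 did not pass (0.34, adjusted p = 0.192). Irak2, an abundant kinase of interleukin 1 receptor signalling, did not pass from day 5 to day 28 (-0.42, adjusted p = 0.114).

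Of the 4 lists, receptors and adaptors had the highest share of calls. Of the 29 genes tested, 11 were called lower and 2 higher from day 5 to day 28 (44.8% called, against 15.2% of all genes), with a median of -0.44. Myd88, the adaptor of Toll-like and interleukin 1 receptors, fell by 1.05 (SE 0.126, adjusted p = 0.00184), from 92.7 ± 5.76 to 44.5 ± 0.721 FPKM. Nod2, a sensor of bacterial cell walls, fell by 1.08 (adjusted p = 0.00447) and Tlr2, a receptor for bacterial lipoproteins, by 0.97 (adjusted p = 0.00657). Traf5, an adaptor of TNF family receptors, rose by 1.88 (SE 0.174, adjusted p = 7.057e-04), from 6.59 ± 1.15 to 24.0 ± 0.151 FPKM, and Malt1, the protease of the CARD-BCL10-MALT1 complex, rose by 0.83 (adjusted p = 0.0277). Tnfrsf1b, a TNF receptor, did not pass (-0.27, adjusted p = 0.520).

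Of the 19 other regulators tested, 3 were called lower and none higher from day 5 to day 28 (15.8% called, near the 15.2% of all genes), 7 had a log2 fold change above 0, and the median was -0.18. Those called were N4bp1 (-1.13, adjusted p = 0.00337), Irak3, a brake on interleukin 1 and Toll-like receptor signalling (-1.03, adjusted p = 0.00317), and Bcl3, a nuclear IkB protein (-1.11, adjusted p = 0.0202). Bcl3 was outside the rule for named genes and was chosen after its value was seen. Zfp36, which encodes a protein that destabilises cytokine mRNA and was the most abundant of this list, was at 1110.0 ± 43.8 FPKM at day 5 and 855 ± 88.5 at day 28 and did not pass (log2 fold change -0.36, adjusted p = 0.118), nor did Zc3h12a (-0.32, adjusted p = 0.244). Of 39 target genes tested, 13 were called lower and none higher (33.3% called), 7 had a log2 fold change above 0, and the median was -0.44, while Ccl20 had no fragments and was not tested. Saa3, an acute phase gene, had the lowest adjusted p among the targets and fell by 6.61 (SE 0.726, adjusted p = 0.00122), from 640.1 to 3262 FPKM in the day 5 libraries to 20.8 and 21.3 at day 28. Il1b fell by 0.63 (SE 0.127, adjusted p = 0.0130), from 1178 ± 64.7 to 755 ± 39.1 FPKM, and Mmp9 by 1.69 (SE 0.216, adjusted p = 0.00215). The 2 most abundant targets, the neutrophil attractants Cxcl2 and Cxcl1, did not pass (-0.14, adjusted p = 0.613, and -0.29, adjusted p = 0.239).

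**Figure D5:**
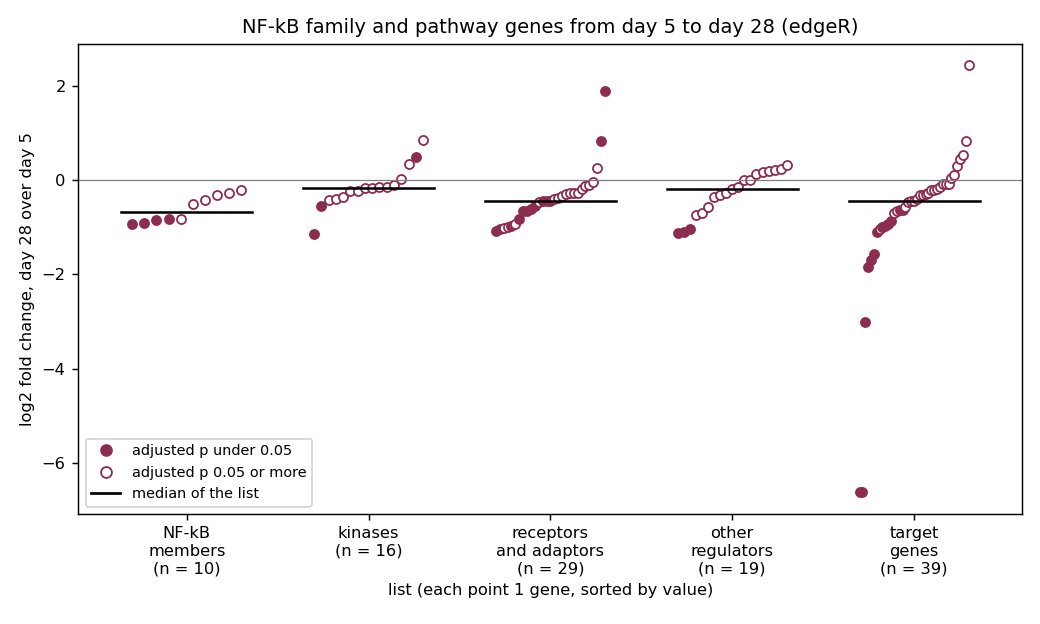
Log2 fold change from day 5 to day 28 (y axis, edgeR) of each tested gene, sorted by value within the 10 NF-kB genes and 4 lists of pathway genes. Filled points have an adjusted p under 0.05 and black lines are medians, which lie below 0 for all 5 groups, at -0.67 for the NF-kB genes.

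In the other comparisons fewer genes were called both in the lists and over all genes. Between days 5 and 14, 2 of the 103 pathway genes were called higher and 11 lower (12.6% called, against 4.78% of all genes), 7 of the 11 being targets, with a median of -0.24. From day 14 to day 28 none was called with edgeR, 25 had an unadjusted p under 0.05 and DESeq2 called 8, against 1.84% of all genes. Il1b and Cxcl1 had fallen by day 14, by 0.79 (adjusted p = 0.0184) and 0.75 (adjusted p = 0.0366). Without day 28 replicate 1, 9 of the 103 genes were called from day 5 to day 28 instead of 32 (31.1%), and without day 14 replicate 1, 41 were called from day 5 to day 14 instead of 13, with the changes over all genes given above.

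Markers of other cells and of handling also moved with the day. The summed FPKM of 10 immediate early and heat shock genes that respond to tissue dissociation, all above the floor of 3 fragments in every library, was 2080.0 to 2430.0 at day 5, 3310.0 to 4090.0 at day 14 and 2470.0 to 3210.0 at day 28. Neutrophil markers, of which 3 to 6 of 7 were above the floor in a library, summed to 239 to 275 FPKM at day 5, 495 to 516 at day 14 and 103 to 252 at day 28. That sum was almost all S100a8 and S100a9, and Elane had no fragments in any library. T cell markers, of which 2 to 5 of 7 were above the floor, summed to 6.89 to 7.66, 18.1 to 20.8 and 17.5 to 18.4 FPKM. The T cell sum was mostly Cd4 and Cd2. Cd3e was at 1 to 5 fragments in every library, and Cd3g was at 0 in 5 of the 7 libraries. All 6 fibroblast markers were above the floor in every library and summed to 28.8 to 73.4, 80.3 to 220.0 and 35.1 to 56.7 FPKM, as were all 5 dendritic cell markers, at 8.02 to 12.8, 10.8 to 24.7 and 19.7 to 30.1. Endothelial markers, of which 3 or 4 of 4 were above the floor, were lower at each later day without overlap, at 14.6 to 26.2, 7.24 to 13.4 and 3.66 to 6.49 FPKM, and were mostly Kdr and Pecam1. Eosinophil markers, of which 1 or 2 of 4 were above the floor, summed to 0.616 to 0.852, 0.831 to 2.30 and 1.84 to 2.04 FPKM, with Epx at 0 in 6 of the 7 libraries. Summed B cell, mast cell and Schwann cell markers were at most 10.8, 0.976 and 0.573 FPKM in any library. The part of these cells and of handling in the changes of the NF-kB genes was not tested.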

How the data were processed

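Macrophage RNA was measured by polyA+ RNASeq with single-end reads. The submitters' processing notes name cutadapt 1.8, TopHat2 2.0.13 and Cuffdiff 2.2.1 and the mm10 build. The authors deposited for each gene and library the expected count of fragments that cuffdiff estimated, the signal that results from cuffdiff's scaling to a common library size (scaled fragments), and the FPKM, normalised for transcript length and library size. Another column of scaled fragments per library was not used (1 column). How the authors counted fragments of overlapping genes, and whether they used strand, is not given in the sources used here, so values of overlapping genes are uncertain.

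Expected counts (1.01% of values were not whole) were rounded and entered edgeR 4.0.16 (R 4.3.3): TMM normalisation, filter by expression per time point, all 7 libraries in 1 fit with time point as the only term, quasi-likelihood F test, and Benjamini-Hochberg adjustment over the 12858 genes tested. A gene was called when its adjusted p was below 0.05. Stringent genes also had a 2-fold difference in mean FPKM and a mean of at least 5 FPKM on 1 of the days. Depth, from 18027190 to 35247116 fragments, set the floor of 3 fragments at 8.51e-06% to 1.66e-05% of a library, for counting error only. The study gives 3 samples per time point, whereas the deposited series holds 3, 2 and 2 libraries, all of which were analysed here. Whether a library is 1 mouse or a pool is not given, so p-values measure the spread between libraries, which may be technical. Promoters and their build came from RefSeq (GRCm38.p6) and gene positions from GENCODE on GRCm38.

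The 10 genes, the pathway lists and the rule for named genes were chosen with earlier results of these data known. By that rule all 10 genes were named, with, from each list and comparison, up to 2 called genes per direction with the lowest adjusted p and the 2 most abundant genes. Otulin was counted once, under its older symbol Fam105b. The alternatives were DESeq2 1.42.0, RLE and cuffdiff scaling, no expression filter, limma 3.58.1 on log2(FPKM + 1) and log2(FPKM + 0.1), fits of the compared days alone, a replicate block, the stringent criteria and leaving out each library. The tests were also run on simulated counts in which a gene had the same spread on every day. That run does not cover the wider spread of the later days. Tables and plots used Python 3.11.15, pandas 2.3.3, numpy 2.4.6 and matplotlib 3.10.9.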

Additional observations from a re-analysis of the deposited data

How the results depend on the processing

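The direction of the 10 NF-kB genes held in all 160 values of the alternative fits from day 5 to day 28, in 158 of 160 from day 5 to day 14 and in all but 9 of 160 from day 14 to day 28, where no member was called. From day 5 to day 28, 4 members were called, and RLE scaling, cuffdiff scaling and limma also gave 4 (13.6% to 15.1% of all genes called), whereas DESeq2 gave 7 (13.7%), no expression filter 6 (14.3%), the compared days alone 6 (22.1%), the stringent criteria 0 (3.52%), and leaving out each library 0 to 6 (3.40% to 20.6%). Between days 5 and 14, where 1 was called, no expression filter gave 2 (8.26% of all genes), limma with either pseudocount, the compared days alone and the stringent criteria gave 0 (1.17% to 2.52%), and leaving out a library 0 to 7 (52 to 1728 genes in all). From day 14 to day 28, leaving out a library gave 0 to 1. For the 103 pathway genes, the 13 calls from day 5 to day 14 became 32 with DESeq2, 34 with no filter, 8 and 7 with limma (pseudocounts 1 and 0.1), 7 with the compared days alone, 4 under the stringent criteria and 1 to 41 without a library. From day 14 to day 28 the 0 calls became 8 with DESeq2, 10 with no filter and 0 to 18 without a library. From day 5 to day 28 the 32 became 15 under the stringent criteria and 9 to 47 without a library. Over all genes, DESeq2 called 7.53% and no filter 8.26% from day 5 to day 14. The shares from day 14 to day 28 were 1.84% and 2.25%. From day 5 to day 14, limma called 1.96% and 2.15% of all genes, the compared days alone 2.52% and the stringent criteria 1.17%. The cause of these differences was not tested.

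Whether the replicate numbers pair the libraries could not be settled. Across 7556 genes, deviations from the day means of same-numbered libraries correlated at 0.402 and 0.058 between days 5 and 14. The values were -0.049 and 0.029 between days 5 and 28, and -0.138 between days 14 and 28. With 2 libraries on a day, the 2 deviations of a gene are equal and opposite. Both replicate numbers therefore give the same value between days 14 and 28. With replicate number as a block, 0, 0 and 1 members were called from day 5 to 14, 14 to 28 and 5 to 28. In the same order, 0, 0 and 17 pathway genes and 0.0467%, 0% and 5.72% of all genes were called. The block fit had 2 residual degrees of freedom, against 4 in the main fit. A block with the day 28 numbers swapped, chosen after seeing the data, gave 0, 0 and 6 members and 18, 2 and 35 pathway genes. It called 2.78%, 0.49% and 12.3% of all genes. With the block as numbered and swapped, the log2 fold change from day 5 to day 14 reversed for Malt1 (-0.13 and -0.12) and Mmp9 (0.020 and 0.034), neither called.

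Other reversals came from leaving out a library, in genes not called in that comparison. Between days 5 and 14 the log2 values so obtained spanned -0.12 to 0.25 for Malt1, -0.34 to 0.13 for Mmp9, -0.22 to 0.017 for Nfkbia, -0.48 to 0.049 for Tnfaip3, -0.45 to 0.025 for Zc3h12a and -0.036 to 0.33 for Zfp36. From day 14 to day 28 they spanned -0.23 to 0.30 for Irak2, -0.19 to 0.57 for Nfkb1, -0.67 to 0.034 for Nfkb2, -0.82 to 0.18 for Nfkbib, -0.48 to 0.048 for Nfkbie, -0.15 to 0.35 for Rel, -0.37 to 0.17 for Tnfaip3, -0.21 to 0.55 for Tnfrsf1b and -0.34 to 0.13 for Zc3h12a. From day 5 to day 28 those of Cxcl2 spanned -0.22 to 0.005. With 2 libraries each at days 14 and 28, the spread of those days rests on few values.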
